A study of Mus musculus with 23 samples.

Results

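Of the 23 samples of the series, 9 are described here, the 3 spleens with T-cell acute lymphoblastic leukemia (T-ALL) that arose from a Notch3 knockout thymus (Notch3 KO T-ALL) and the 6 normal thymus samples (thymus control). They were chosen by their labels alone, and the expression of 24475 genes was listed for each. The recipients of the leukemia group were Rag2-/-Il2rg-/- mice of the BALB/c strain, which lack T, B and NK cells, and each had received a newborn thymus lobe under the kidney capsule. By the study's methods, the donor allele carried a β-galactosidase gene placed in frame in the first coding exon of Notch3. The strain background of the knockout donors was not given in the sources used here. Control thymus came from normal C57BL/6 mice without transplant or leukemia. Each T-ALL arose separately in its own recipient, the spleens were not fractionated, and ages at sampling were not given. The groups therefore differed in tissue, in the strain of the animal and in the host genotype as well as in disease and donor genotype, and these cannot be told apart in the comparison. The other 14 samples, spleens of the same kind of recipient with T-ALL from a wild-type thymus (WT T-ALL), served as the most similar group where a difference from thymus was set beside it.

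T-ALL is a cancer of T-cell progenitors. Notch receptors are membrane proteins that are cut after ligand binding, and the released intracellular part joins the DNA-binding protein RBPJ and activates genes such as Hes1, Dtx1, Ptcra and Myc. Notch1 signaling commits progenitors to the T lineage and is switched down once thymocytes have passed the pre-T-cell receptor (pre-TCR) checkpoint and become CD4+CD8+ double-positive cells, the most common cell of the thymus. Double-positive cells rearrange the Tcra locus with the Rag recombinase and are selected by their T-cell receptor, and mature single-positive cells leave the thymus through S1pr1. Notch1 is the Notch receptor most often mutated in T-ALL, and Notch3 is itself a target of Notch1. The comparison sets leukemias from a Notch3 knockout thymus beside the normal tissue in which their cell of origin develops.

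Values are log2(scaled RPKM + 1), called log2 levels below, where RPKM counts reads per kilobase of transcript, adjusted for the size of the library. Differences are of mean log2 levels and understate fold changes where values are low. Each thymus library listed 10234 to 10300 genes at a scaled RPKM of 1 or more, and each Notch3 KO T-ALL library 10716 to 10975. Without read counts in the table, how deeply any library was sequenced is unknown. The thymus controls fell into pairs, since the correlation of log2 levels across genes was 0.994 between controls 1 and 3, 0.995 between 2 and 4 and 0.988 between 5 and 6. Nothing in the labels says which samples came from which animals, and p-values measure only the spread between samples, which may be partly technical. For the gene-by-gene p-values against thymus, that spread was estimated over all 23 samples, the 14 WT T-ALL included.

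The targeted gene was examined first. Notch3 (gene 18131, GRCm38.p6, chromosome 17, 32120820 to 32166896) had log2 levels of 3.22, 2.59 and 3.74 in the 3 Notch3 KO T-ALL libraries. In thymus the lowest, median and highest log2 levels were 2.62, 3.18 and 4.29. The groups overlapped, with a difference of -0.12 that the two-sided exact permutation test over 84 splits placed at p = 0.774 (the lowest p open to such splits is 0.0119). Leaving out Notch3 KO T-ALL 2 turned the difference to 0.172, and leaving out thymus control 4 turned it to 0.072. The files give 1 value per gene, so exons before and behind the insertion, and donor and host cells, cannot be told apart, and the knockout label was not checked by it.

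Across 11919 genes that reached a scaled RPKM of 1 in 3 or more samples, 4475 (37.5%) differed between Notch3 KO T-ALL and thymus at a Benjamini-Hochberg adjusted p under 0.05 in limma. Of these, 2527 (21.2%) were higher and 1948 (16.3%) lower in Notch3 KO T-ALL, and quantile normalization moved that split to 2061 higher and 2401 lower. The median difference over all genes tested was 0.077, and -0.052 after quantile normalization. Of the lists of pathway genes, DNA replication, mitosis, ribosome biogenesis, nucleotide synthesis and the red cell lists had most of their tested members higher, and the genes of double-positive thymocytes, T-cell receptor signaling and the Gimap GTPases had most of theirs lower. Without Notch3 KO T-ALL 3, 2859 genes were called, with each pair of controls averaged 2875, and with controls 1 and 3, 2 and 4 or 5 and 6 alone 1783, 1792 and 2926.

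**Figure D1:**
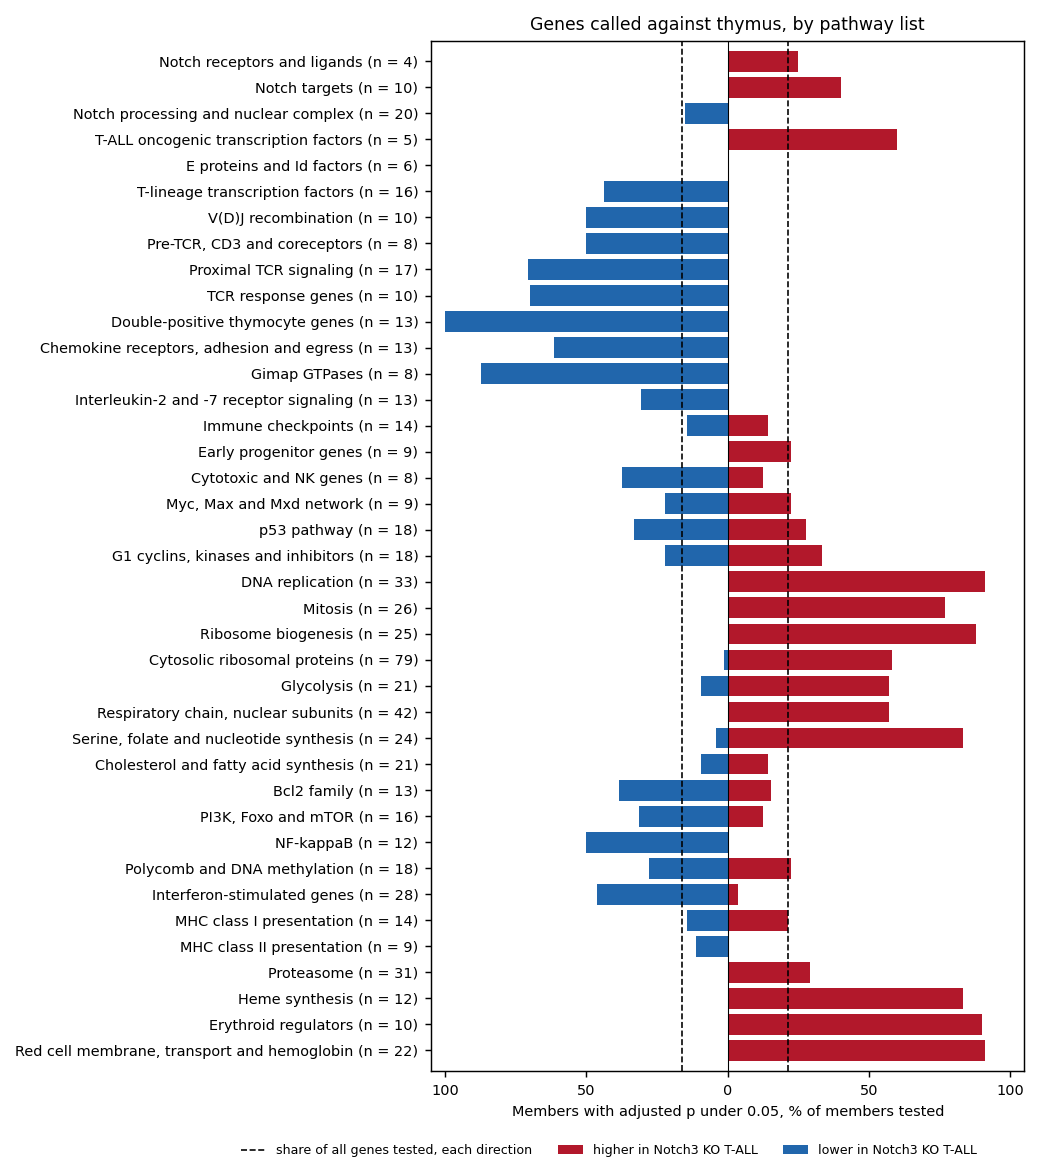
Share of the tested members of 39 pathway lists called at an adjusted p under 0.05, in percent, with genes higher in Notch3 KO T-ALL to the right in red and lower ones to the left in blue. The dashed lines mark the shares over all genes tested, 21.2% higher and 16.3% lower. The double-positive thymocyte list reaches 13 of 13 lower, and the DNA replication list 30 of 33 higher.

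Marker genes of other cell types moved with the groups, as the plot of summed marker levels shows. Summed scaled RPKM of 10 T cell markers was 4020 to 4620 in thymus and 2380 to 3240 in Notch3 KO T-ALL. Within that list Cd3e, a chain of the CD3 complex, had log2 levels of 8.02, 7.44 and 7.81 against a thymus range of 7.47 to 8.19, and Thy1, a surface protein of T cells, had 9.86, 8.95 and 9.20 against 9.53 to 9.93. Cd3e and Thy1 were not called, although Thy1 was lower after quantile normalization (difference -1.31, limma adjusted p = 0.00575), whereas Lck, the kinase that starts T-cell receptor signaling, was lower by a log2 difference of -0.81 (limma adjusted p = 0.0115), a call lost without Notch3 KO T-ALL 1 or 3. Tcf7, a transcription factor of early T cells, lay at 9.50, 9.26 and 9.02 against 9.69 to 10.18 (difference -0.66, limma adjusted p = 0.0453), a call lost without any 1 of the 3 leukemias or of thymus controls 2 to 6. Of the 10 T cell markers 5 were lower with a median difference of -0.70, 3 without Notch3 KO T-ALL 1 or 3, and 7 with a median of -1.42 after quantile normalization.

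The red cell list stood furthest from thymus. Summed scaled RPKM of 9 erythroid markers was 4.33 to 95.7 in thymus and 578 to 3000 in Notch3 KO T-ALL, lowest in Notch3 KO T-ALL 1. Of 16 macrophage markers tested 16 were higher, with sums of 12.3 to 75.4 in thymus and 394 to 687 in Notch3 KO T-ALL. Cd5l, a secreted protein of tissue macrophages, had log2 levels of 5.39, 5.19 and 5.67 against 0.10 to 0.51 in thymus. Hmox1, the heme oxygenase, rose by a log2 difference of 4.61 (limma adjusted p = 1.56e-05), and Vcam1, an adhesion molecule of red pulp macrophages and vessels, by 4.14 (limma adjusted p = 0.000389). The 3 leukemias were alike in these macrophage genes.

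Neutrophil markers split the leukemias. Their summed scaled RPKM was 6970 and 7850 in Notch3 KO T-ALL 1 and 3 but 212 in Notch3 KO T-ALL 2, inside the thymus range of 60.0 to 547. S100a8, a calcium-binding protein of neutrophils, had log2 levels of 11.83, 6.70 and 11.46 against 3.92 to 7.88 in thymus. Of 16 members 5 were called higher over all libraries and 14 without Notch3 KO T-ALL 2. When Notch3 KO T-ALL 1 or 3 was left out the limma count was 0, with 1 and 0 members at an unadjusted p under 0.05.

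Of 8 megakaryocyte markers tested 8 were higher, and their sums were 0.705 to 1.27 in thymus and 67.2 to 201 in Notch3 KO T-ALL. The platelet chemokines Ppbp and Pf4 rose by log2 differences of 5.31 and 5.12, and Itga2b, the platelet integrin, by 2.92 (limma adjusted p = 2e-05, 1.62e-05 and 2.29e-05). B cell markers were lower in 5 of 6 tested, with sums of 20.4 to 25.2 in thymus and 1.99 to 4.26 in Notch3 KO T-ALL. Cd79b, a signaling chain of the B-cell receptor, had log2 levels of 1.08, 0.52 and 0.55 against 3.51 to 3.97 (difference -3.07, limma adjusted p = 1.94e-06), Cd79a fell by 1.63 and Ms4a1 by 1.43. With controls 5 and 6 alone, 1 B cell marker was called. The recipients lack B cells by genotype.

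Thymic epithelium markers summed to 11.8 to 17.6 in thymus and 7.01 to 12.7 in Notch3 KO T-ALL, with 1 of 4 tested lower, a call lost without Notch3 KO T-ALL 1 or 3. Endothelial markers summed to 31.7 to 37.8 and 32.4 to 45.0, with 4 of 5 tested higher, among them Plvap (log2 levels 2.71, 3.24 and 3.27 against 0.02 to 0.20). Stromal markers summed to 1.74 to 2.94 and 30.7 to 86.2, with 4 of 4 tested higher (2 without Notch3 KO T-ALL 2), among them the collagen gene Col1a2 (difference 4.13) and the receptor Pdgfrb (2.95). Acta2, the smooth muscle actin, had a log2 level of 5.38 in Notch3 KO T-ALL 1 but 1.11 and 0.26 in the others. Dendritic cell markers summed to 1.62 to 3.53 and 4.14 to 7.39, with 2 of 3 tested higher and Zbtb46 up by 1.02. In these bulk samples, fewer cells of a type and less RNA per cell cannot be told apart, and the part of each cell type in the changes below was not tested.

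**Figure D2:**
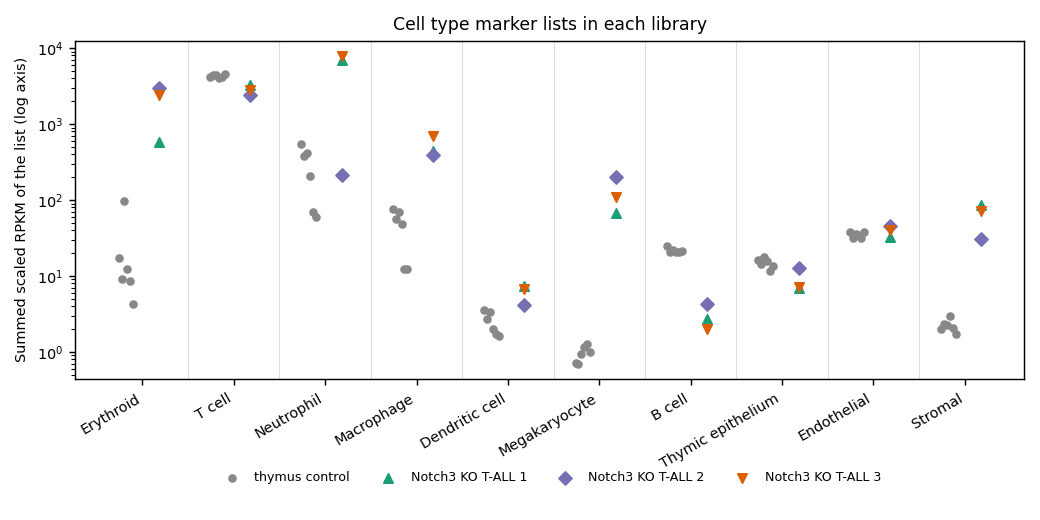
Summed scaled RPKM of 10 cell type marker lists on a log axis, with 1 point for each of 6 thymus control and 3 Notch3 KO T-ALL libraries. Erythroid, macrophage, megakaryocyte and stromal sums lie above every thymus control in the 3 leukemias, B cell sums lie below, and the neutrophil sum of Notch3 KO T-ALL 2, at 212, lies among the controls.

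The erythroid content had a value for each library, and it was entered as a covariate (the mean log2 level of the 9 erythroid markers) in an alternative fit. That score lay at 0.36 to 1.45 in thymus and, without overlap, at 5.41 to 7.75 in the leukemias, so erythroid content and disease cannot be told apart between these groups, and the fit drew on the spread among the 14 WT T-ALL libraries, at 2.24 to 6.48. It called 191 genes higher (1.6%) and 156 lower (1.31%). Of 148 named genes with a call, 131 lost it. Of these, 37 kept their direction with a log2 difference as large or larger, 82 kept it with a smaller one and 12 turned. Rag1, Cd8a and Mcm10 had differences of -4.70, -3.40 and 1.69 with the covariate, whereas Cd4, Bcl11b, Ccnd3 and Mki67 had -0.67, -0.62, -0.32 and 0.17. Slc4a1, Alas2, Epb42, Klf1 and Rhag are members of the score, so their values with it are set by construction. List medians with the covariate were 0.94 for DNA replication, 0.75 for mitosis and 1.32 for ribosome biogenesis, and 0.12 for glycolysis, 0.04 for the respiratory chain, -0.18 for ribosomal proteins and -0.01 for the proteasome.

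Of 4 Notch receptors and ligands that passed the filter, Notch1 was called. Notch1 (gene 18128, chromosome 2, 26457902 to 26503822) had log2 levels of 6.80, 7.20 and 6.52 in Notch3 KO T-ALL, and 4.40, 4.62 and 5.84 as the lowest, median and highest in thymus. Every leukemia lay above every control, with a difference of 1.91 ± 0.35 (SE, limma adjusted p = 0.000229). Notch2 lay at 2.45, 2.32 and 2.14 against 2.22 to 3.06 and was not called (difference -0.24). Notch4, a receptor of endothelial cells, stayed under the filter, with log2 levels of 0.19 to 0.42 in Notch3 KO T-ALL and 0.05 to 0.12 in thymus.

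Among 10 Notch targets tested 4 were higher and 0 lower, with a median difference of 0.36 against 0.077 over all genes. Dtx1, a ubiquitin ligase and regulator of Notch, had log2 levels of 5.65, 5.89 and 6.24 against 1.97, 3.01 and 4.42 in thymus, without overlap (difference 2.74 ± 0.59, limma adjusted p = 0.000941). Heyl, a transcriptional repressor, was close to 0 in thymus, at 0.11 to 0.30, and at 3.59, 2.51 and 3.43 in the leukemias (difference 2.97, limma adjusted p = 0.00223). Hes1, the repressor that is the best known Notch target, was unequal among the leukemias, at 5.26 and 5.50 in Notch3 KO T-ALL 1 and 3 but 2.58 in Notch3 KO T-ALL 2, inside the thymus range of 2.02 to 3.00. Its difference of 2.01 was called (limma adjusted p = 0.00134). With the erythroid covariate 2 targets were called, Hes1 (limma adjusted p = 0.0365) and Myc, and Dtx1 and Heyl were not.

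Myc, the transcription factor that drives growth and is induced by Notch1 in T cells, had log2 levels of 7.66, 6.50 and 7.09 in Notch3 KO T-ALL and 4.63, 4.89 and 5.64 in thymus. The groups did not overlap, and the difference of 2.07 ± 0.30 (limma adjusted p = 1.53e-05) was 3.55 with the erythroid covariate (limma adjusted p = 0.000597). Nrarp, a feedback inhibitor of Notch, was not called (1.99, 1.41 and 2.96 against 1.59 to 1.98). Il2ra, which encodes the interleukin-2 receptor alpha chain CD25, had log2 levels of 0.32, 1.23 and 3.79 against 3.78 to 5.57 in thymus and was not called (difference -2.74, limma adjusted p = 0.0807). It was called lower in the fit of the 9 samples alone (limma adjusted p = 0.00428) and with offsets of 0.1 and 0.01 (differences -3.55 and -3.72, limma adjusted p = 0.0424 and 0.0381).

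Ptcra, the pre-TCR alpha chain gene, gave opposite pictures in different leukemias. Its log2 level was 1.27 in Notch3 KO T-ALL 1 and 5.29 and 5.57 in the other leukemias, on either side of the thymus range of 4.28 to 4.78, so the groups did not differ (difference -0.50, limma adjusted p = 0.698). Without Notch3 KO T-ALL 1 the difference was 0.88. The promoter of Ptcra is printed because its gene is a Notch target whose level divided the leukemias. It shows 250 bases before the RefSeq start of Ptcra on GRCm38.p6, chr17:46763713-46763962, minus strand, with the letters of the RBPJ motif TGGGAA in capitals:
Ptcra: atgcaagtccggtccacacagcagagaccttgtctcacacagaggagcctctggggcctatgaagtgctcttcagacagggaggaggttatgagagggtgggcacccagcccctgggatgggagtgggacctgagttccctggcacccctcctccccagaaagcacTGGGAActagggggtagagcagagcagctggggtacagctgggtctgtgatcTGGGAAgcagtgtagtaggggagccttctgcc
The motif was searched on both strands and occurs 2 times here. Of 8 Notch targets with a RefSeq promoter 3 (37.5%) held it within these 250 bases, beside 24.1% of 27025 genes.

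Of 20 genes for the processing of Notch and its nuclear complex, 0 were higher and 3 lower. Maml1 and Maml2, coactivators that bind the Notch and RBPJ complex, were lower by log2 differences of -0.94 and -1.77 (limma adjusted p = 0.000421 and 7.23e-05). Itch, a ubiquitin ligase that acts on Notch, lay at 4.11, 4.17 and 4.09 against 4.64 to 5.16 in thymus (difference -0.71, limma adjusted p = 0.00666). Beside the 16.3% of all genes that were lower, 3 of 20 is close to the background.

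**Figure D3:**
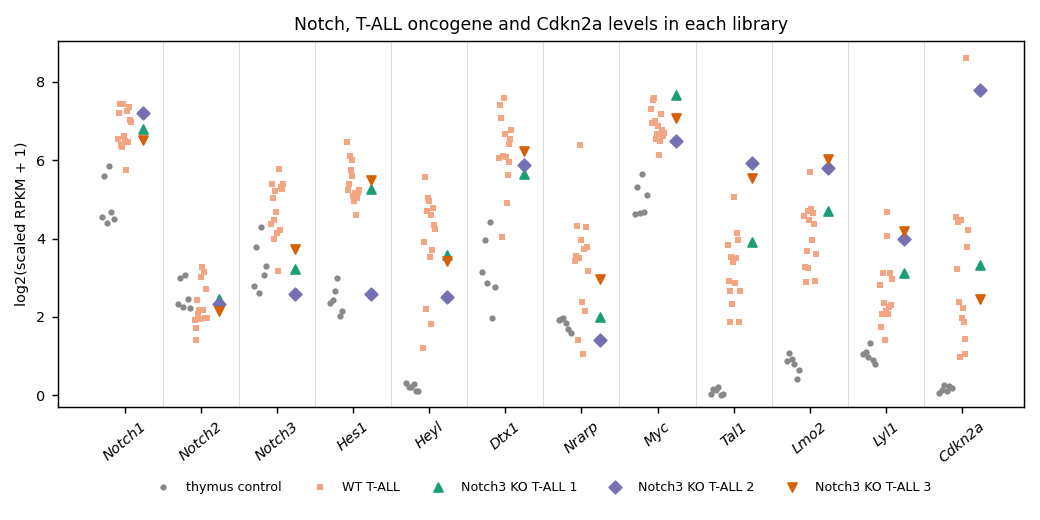
Log2 levels, log2(scaled RPKM + 1), of 12 Notch pathway, T-ALL oncogene and tumor suppressor genes, with 1 point for each library of 6 thymus controls (gray), 14 WT T-ALL (squares) and 3 Notch3 KO T-ALL (large symbols). Notch1, Dtx1, Myc, Tal1, Lmo2 and Lyl1 of the 3 leukemias lie above every thymus control, Hes1 of Notch3 KO T-ALL 2 lies among the controls at 2.58, and Cdkn2a of the same leukemia stands at 7.79.

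Among the transcription factors known as T-ALL oncogenes, 5 of 13 passed the filter, and 3 of these were higher. Tal1, a basic helix-loop-helix factor, had log2 levels of 3.92, 5.92 and 5.54 in Notch3 KO T-ALL and 0.00 to 0.20 in thymus (difference 5.03 ± 0.53, limma adjusted p = 2.82e-07). Lmo2, its LIM-domain partner, lay at 4.70, 5.81 and 6.04 against 0.40 to 1.08 (difference 4.74 ± 0.47, limma adjusted p = 1.29e-07). Lyl1, a relative of Tal1, lay at 3.13, 3.99 and 4.18 against 0.79 to 1.32 (difference 2.74 ± 0.50, limma adjusted p = 0.000188). None of the leukemias reached down to a control in these genes. Tal1 and Lmo2 are also genes of red cell precursors and megakaryocytes, whose markers rose in the same libraries, and with the erythroid covariate their differences were 1.90 and 1.82 (limma adjusted p = 0.183 and 0.131). In Notch3 KO T-ALL 1, with the lowest erythroid sum of the 3, all 3 factors were at their lowest. Lmo2 and Lyl1 were highest in Notch3 KO T-ALL 3, however, and the erythroid sum in Notch3 KO T-ALL 2. The part of red cell precursors in these levels was not tested. Of 6 E proteins and Id factors, which Tal1 binds or which act against its partners, 0 were called in limma, 1 at an unadjusted p under 0.05, and 1 was lower after quantile normalization.

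Of 16 T-lineage transcription factors 7 were lower and 0 higher, with a median difference of -0.78. Satb1, a chromatin organizer, had log2 levels of 6.87, 6.94 and 7.44 in Notch3 KO T-ALL against 8.71 to 9.32 in thymus (difference -1.86, limma adjusted p = 7.99e-05). Bcl11b, needed for T-lineage commitment, lay at 5.74, 5.75 and 5.34 against 6.82 to 7.55 (difference -1.54, limma adjusted p = 3.89e-05). Satb1 and Bcl11b were nearly level among the leukemias.

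Genes of V(D)J recombination were lower in 5 of 10, and in 3 without Notch3 KO T-ALL 1. Rag1 (gene 19373, chromosome 2, 101638252 to 101649532), the catalytic subunit of the recombinase, had log2 levels of 3.81, 8.62 and 4.72 in Notch3 KO T-ALL and 9.75, 10.08 and 10.70 as lowest, median and highest in thymus. Mean scaled RPKM was 144 and 1120, and the log2 difference was -4.37 ± 0.97 (limma adjusted p = 0.00125). Rag2, its partner, lay at 1.08, 5.56 and 2.36 against 6.21 to 6.79 (difference -3.53, limma adjusted p = 0.00977), a call lost without Notch3 KO T-ALL 1 or 3. Both genes were far higher in Notch3 KO T-ALL 2 than in the other leukemias, although below every control. Dntt, the terminal transferase that adds bases at the joints, fell less, to 7.08, 8.22 and 7.81 from 9.31 to 10.05 (difference -1.91, limma adjusted p = 0.00019). The other 7 members of the list, which repair DNA ends in all cells, included 2 further lower genes. The recipients carry a Rag2 deletion.

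The coreceptors were all lower. Cd4 had log2 levels of 6.11, 6.32 and 3.40 against 8.31 to 8.86 in thymus (difference -3.24, limma adjusted p = 0.00132). Cd8a lay at 5.59, 7.72 and 5.50 against 9.01 to 9.57 (difference -2.98, limma adjusted p = 0.00027), and Cd8b1 at 5.43, 8.06 and 4.99 against 9.33 to 9.96 (difference -3.47, limma adjusted p = 0.000204). Notch3 KO T-ALL 2 carried the most Cd8a, Cd8b1, Rag1 and Rag2, and Notch3 KO T-ALL 3 the least Cd4. Of 8 genes of the pre-TCR, CD3 and coreceptor list 4 were lower.

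All 13 double-positive thymocyte genes were tested and lower, and in each the 3 leukemias lay below every control, with a median difference of -2.08. Over all genes, 18.4% lay below every control in this way and 23.9% above. The list holds Rag1, Rag2, Dntt, Cd8b1, Satb1 and Ccr9. Bcl2l1, the survival protein that double-positive cells rely on, is a member as well, at 3.63, 5.71 and 5.18 against 5.85 to 6.44 (difference -1.26, limma adjusted p = 0.017), a call lost without Notch3 KO T-ALL 1. With controls 5 and 6 alone 10 of the 13 were called lower, and with the erythroid covariate 0 of 13 were called in limma (8 at an unadjusted p under 0.05) with a median of -2.09. T cell markers were lower as well, with a median difference of -0.70. After quantile normalization the medians were -1.42 for T cell markers and -2.39 for the double-positive genes. The part of T cell content in the double-positive genes was not tested.

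**Figure D4:**
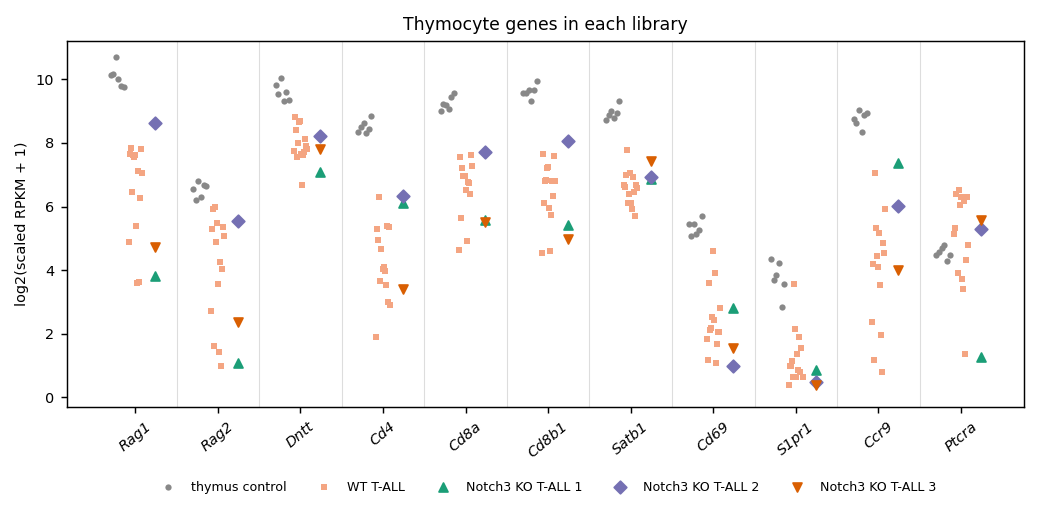
Log2 levels, log2(scaled RPKM + 1), of 11 genes of thymocyte development in 6 thymus controls (gray), 14 WT T-ALL libraries (squares) and 3 Notch3 KO T-ALL libraries (large symbols). In all but Ptcra the 3 leukemias lie below every thymus control, Rag1 and Rag2 are highest in Notch3 KO T-ALL 2, and Ptcra lies below the controls in Notch3 KO T-ALL 1 alone.

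The proximal T-cell receptor signaling list followed, with 12 of 17 lower and a median difference of -1.05. Cd5 and Cd6, surface proteins that damp the receptor signal, were lower by log2 differences of -2.15 and -2.13 (limma adjusted p = 6.22e-05 and 4.33e-06), and Cd6 kept its call with the erythroid covariate (limma adjusted p = 0.0279). Cd6 lay at 3.88, 4.28 and 4.42 against 6.24 to 6.42.

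Genes that a T-cell receptor signal switches on were lower in 7 of 10 tested, with a median of -1.90. Cd69, which holds cells in the thymus, had log2 levels of 2.81, 1.00 and 1.56 in Notch3 KO T-ALL against 5.08 to 5.70 (difference -3.56, limma adjusted p = 6.11e-05). Egr2, an immediate-early factor of selection, was nearly absent at 0.90, 0.17 and 0.49 against 2.89 to 3.73 (difference -2.76, limma adjusted p = 8.86e-05) and was called with the erythroid covariate too (limma adjusted p = 0.0483). Tnfrsf9, the costimulatory receptor 4-1BB, fell by 2.16 (limma adjusted p = 0.00181).

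Receptors for migration were lower in 8 of 13, with a median of -1.68, although with controls 5 and 6 alone 3 were. S1pr1, the receptor for thymic egress, lay at 0.87, 0.49 and 0.40 against 2.85 to 4.35 (difference -3.17, limma adjusted p = 3.26e-05). Ccr7, which guides T cells to the medulla and lymph nodes, lay at 2.94, 1.10 and 1.66 against 3.87 to 5.50 (difference -2.92, limma adjusted p = 0.00132). Ccr9, the thymus and gut homing receptor, ran from 7.36 in Notch3 KO T-ALL 1 over 6.02 to 4.00 in Notch3 KO T-ALL 3, against 8.35 to 9.05 (difference -2.97, limma adjusted p = 0.0258), a call lost without Notch3 KO T-ALL 3.

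The Gimap GTPases, which lie in 1 cluster on chromosome 6 and act in lymphocyte survival, were lower in 7 of 8, with a median of -1.56 (4 of 8 without Notch3 KO T-ALL 2 or with controls 5 and 6 alone). Gimap3 lay at 1.48, 0.69 and 0.80 against 4.39 to 5.17 (difference -3.78, limma adjusted p = 3.05e-06). Gimap6 and Gimap8 fell by 2.25 and 2.48. Notch3 KO T-ALL 2 was the lowest of the leukemias in all 3 genes.

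Of 13 genes of interleukin-2 and interleukin-7 receptor signaling 4 were lower and 0 higher, beside 16.3% and 21.2% over all genes. Socs1, the feedback inhibitor of cytokine signals, lay at 2.68, 3.69 and 2.41 against 5.51 to 6.78 (difference -3.19, limma adjusted p = 3.67e-05), and Stat5b, the transcription factor of the pathway, at 5.15, 5.32 and 5.20 against 6.18 to 6.44 (difference -1.08, limma adjusted p = 0.000356). Il7r, the interleukin-7 receptor, was lowest in Notch3 KO T-ALL 1 and 2, at 1.12 and 0.89, and lay at 3.56 in Notch3 KO T-ALL 3 against 3.86 to 4.63 (difference -2.46, limma adjusted p = 0.0318). Its call was lost without Notch3 KO T-ALL 1 or 2. Notch3 KO T-ALL 3 carried the most Il7r and Il2ra of the leukemias.

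Of 14 immune checkpoint genes 2 were higher and 2 lower, below the 21.2% and 16.3% over all genes. The counts were 1 higher and 0 lower without Notch3 KO T-ALL 3 and 0 higher and 1 lower without Notch3 KO T-ALL 2. After quantile normalization 1 was higher and 3 lower. Ctla4, an inhibitory receptor, was high in Notch3 KO T-ALL 2 alone, at 1.22, 5.66 and 0.97 against 2.08 to 2.77, and its difference of 0.15 (limma adjusted p = 0.903) was -1.37 without that leukemia. Tnfrsf14, the receptor HVEM, rose by 1.33 (limma adjusted p = 0.00447), a call lost without Notch3 KO T-ALL 2, and Cd274, which encodes PD-L1, lay at 1.69, 1.90 and 1.43 against 2.46 to 3.26 (difference -1.07, limma adjusted p = 0.0144), a call lost without Notch3 KO T-ALL 3. Early progenitor genes were higher in 2 of 9 tested, Lmo2 and Bcl11a (2.28, 2.99 and 3.21 against 0.32 to 1.01, difference 2.08, limma adjusted p = 0.00124). That is close to the 21.2% over all genes. Cytotoxic genes had 1 of 8 higher and 3 lower, beside 21.2% and 16.3% over all genes. Gzma, a granzyme also made by early T and NK cells, had log2 levels of 9.06, 7.94 and 9.74 against 5.42 to 6.40 (difference 3.01, limma adjusted p = 1.56e-05), whereas the chemokine Xcl1, the NK receptor Klrd1 and perforin (Prf1) fell by 1.95, 1.79 and 1.23.

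Growth genes formed the other side of the comparison. Of 33 DNA replication genes 30 were higher and 0 lower, with a median of 1.12, and 26 were higher with controls 5 and 6 alone. Cdc6, which loads the replicative helicase, had log2 levels of 5.18, 5.23 and 5.45 in Notch3 KO T-ALL and 2.97, 3.56 and 3.95 as lowest, median and highest in thymus (difference 1.79 ± 0.34, limma adjusted p = 0.000268). Mcm10, another replication factor, lay at 5.17, 5.10 and 5.36 against 2.97 to 3.77 (difference 1.66, limma adjusted p = 3.3e-05). Orc1, of the origin recognition complex, rose by 1.61 (limma adjusted p = 7.06e-05) and Mcm6, a helicase subunit, by 1.18 (limma adjusted p = 0.00134). The leukemias lay close together in Cdc6, Mcm10 and Orc1.

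Mitosis genes were higher in 20 of 26, with a median of 0.95. Plk1, a mitotic kinase, lay at 5.97, 5.86 and 5.97 against 4.38 to 4.98 (difference 1.24, limma adjusted p = 0.000673) and was called with the erythroid covariate (limma adjusted p = 0.0391). Birc5, which encodes survivin, rose by 1.22. Mki67, the marker of cycling cells, rose by 0.89 (7.17, 8.20 and 7.50 against 6.13 to 7.17, limma adjusted p = 0.0188), a call lost without Notch3 KO T-ALL 2 and after quantile normalization.

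The promoters of Mcm6 and Cdc6 are printed because the replication genes moved together and E2F factors are known to act on them. E2f1 itself rose by 1.34 (limma adjusted p = 0.000673) and kept its call with the erythroid covariate (difference 2.53, limma adjusted p = 0.00823). Capitals mark the E2F motifs TTTGGCGC and TTTCCCGC or their reverse complements in 250 bases before the RefSeq starts on GRCm38.p6, chr1:128359706-128359955, minus strand, and chr11:98907901-98908150, plus strand:
Mcm6: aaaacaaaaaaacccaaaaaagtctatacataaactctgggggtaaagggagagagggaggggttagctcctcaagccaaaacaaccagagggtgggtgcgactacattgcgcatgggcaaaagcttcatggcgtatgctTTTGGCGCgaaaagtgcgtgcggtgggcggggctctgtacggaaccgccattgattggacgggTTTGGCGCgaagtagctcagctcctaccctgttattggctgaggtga
Cdc6: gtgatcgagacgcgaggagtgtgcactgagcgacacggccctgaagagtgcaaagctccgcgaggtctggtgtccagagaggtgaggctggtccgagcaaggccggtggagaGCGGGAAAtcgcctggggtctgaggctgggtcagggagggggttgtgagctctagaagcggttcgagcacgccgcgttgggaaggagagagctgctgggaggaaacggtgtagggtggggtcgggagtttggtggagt
Of 26 replication genes with a RefSeq promoter 6 (23.1%) held either motif in these bases, of 21 mitosis genes 0, and of all 27025 genes 1.5%. Neither motif contains the other or the RBPJ letters, and a match is no evidence of binding.

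The cyclins changed places. Of 18 genes of the G1 phase 6 were higher and 4 lower, beside 21.2% and 16.3% over all genes. Ccnd1, the cyclin D1 gene, had log2 levels of 5.86, 4.65 and 5.79 in Notch3 KO T-ALL and 0.50 to 1.16 in thymus (difference 4.56 ± 0.84, limma adjusted p = 0.000245), whereas Ccnd2 lay at 1.78, 1.31 and 2.88 against 3.93 to 5.63 (difference -3.05, limma adjusted p = 0.000164) and Ccnd3, the cyclin of dividing pre-T cells, at 6.07, 7.10 and 7.29 against 8.14 to 9.07 (difference -1.70, limma adjusted p = 0.00107). Ccnd2 was called with the erythroid covariate (difference -5.17, limma adjusted p = 0.00792). Cdk4, the kinase partner of D cyclins, rose by 1.10, Ccne1 by 1.61, and the inhibitor Cdkn1b fell by 1.42.

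The p53 list had 5 of 18 higher and 6 lower, beside 21.2% and 16.3% over all genes. It had 3 lower without Notch3 KO T-ALL 1 and 3 higher without Notch3 KO T-ALL 3. Cdkn2a was above thymus in the 3 leukemias but to unequal degrees. Cdkn2a (gene 12578, chromosome 4, 89274473 to 89294619), which encodes the tumor suppressors p16 and Arf, had log2 levels of 3.32, 7.79 and 2.45 in Notch3 KO T-ALL and 0.05 to 0.26 in thymus (difference 4.36 ± 1.22, limma adjusted p = 0.00772). The call was lost without Notch3 KO T-ALL 2 and with controls 5 and 6 alone. Trp53, which encodes p53, rose by 0.80 (limma adjusted p = 0.00331), although its level in Notch3 KO T-ALL 2, 6.16, lay within the thymus range of 5.65 to 6.34. Gadd45a, a stress gene induced by p53, lay at 4.10, 4.82 and 5.13 against 3.09 to 3.95 (difference 1.21, limma adjusted p = 0.00414). Btg2, an antiproliferative target, Trp53inp1, and Mdm4, an inhibitor of p53, fell by 1.33, 1.61 and 1.32, Trp53inp1 without a call when Notch3 KO T-ALL 1 was left out.

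Ribosome biogenesis genes were higher in 22 of 25, with a median of 1.06. Fbl, the nucleolar methyltransferase fibrillarin, lay at 8.36, 7.56 and 8.28 against 5.59 to 6.72 (difference 1.79, limma adjusted p = 8.17e-06). Gnl3, or nucleostemin, rose by 1.74 and Tsr1 by 1.58, the latter also called with the erythroid covariate (limma adjusted p = 0.0224). In the Myc network 2 of 9 were higher (1 without any 1 of the leukemias) and 2 lower, near the shares over all genes (21.2% and 16.3%), with Mycn down to 0.33, 0.13 and 0.32 from 1.08 to 1.35.

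Cytosolic ribosomal protein genes depended on the scaling. Of 79, 46 were higher and 1 lower with a median of 0.94, and after quantile normalization 9 were higher and 8 lower with a median of 0.05. When Notch3 KO T-ALL 3 was left out 16 were higher and 1 lower, and when Notch3 KO T-ALL 1 was left out 26 and 1. Rps28, Rps29 and Rplp2 had differences of 2.30, 1.93 and 1.70, and with the erythroid covariate Rps29 had -0.22. After quantile normalization Rps29 and Rplp2 each had a difference of 0.7 and no call (limma adjusted p = 0.0655 and 0.0578). The lower gene, Rps27, lay at 6.13, 3.76 and 4.92 against 6.82 to 10.30 (difference -3.85, limma adjusted p = 0.000365). Ribosomal protein genes have many near-identical copies, between which reads may be split, and these values are uncertain for that reason.

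Serine, folate and nucleotide synthesis genes were higher in 20 of 24 and lower in 1, with a median of 1.19. Mthfd1, an enzyme of the folate cycle, lay at 5.95, 5.80 and 6.39 against 3.17 to 4.72 (difference 1.84, limma adjusted p = 0.000183), Cad, which starts pyrimidine synthesis, rose by 1.74 and Shmt2, the mitochondrial serine hydroxymethyltransferase, by 1.73. The lower member was Impdh1, of guanine nucleotide synthesis, at 5.43, 4.86 and 5.33 against 5.96 to 6.65. Glycolysis genes were higher in 12 of 21 and lower in 2, with Tpi1 and Pgam1 up by 1.55 and 1.39 and the lactate dehydrogenase gene Ldhb down to 4.12, 6.36 and 5.38 from 7.31 to 7.98. Hk2, the inducible hexokinase, rose by 1.37, a call lost without Notch3 KO T-ALL 1, and leaving out Notch3 KO T-ALL 1 or 3 gave 5 and 7 higher glycolysis genes.

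Nuclear genes of the respiratory chain were higher in 24 of 42, with a median of 0.71, and leaving out Notch3 KO T-ALL 1 or 3 gave 14 and 8. After quantile normalization 13 were higher and 1 lower, and with control pairs averaged 12 were higher. Ndufb9 and Ndufa1, of complex I, rose by 1.59 and 1.38 and Cox7b, of complex IV, by 1.18. Cholesterol and fatty acid genes had 3 of 21 higher (1 without any 1 of the leukemias) and 2 lower, below the 21.2% and 16.3% over all genes. Sqle, an enzyme of the cholesterol pathway, rose by 1.00, while Dhcr7, which completes it, and Srebf1, a regulator, fell by 1.20 and 0.72. Proteasome genes were higher in 9 of 31 (5 without Notch3 KO T-ALL 1 or 3 and 14 without Notch3 KO T-ALL 2), beside 21.2% over all genes. Psmb2 lay at 7.47, 7.24 and 7.27 against 6.11 to 6.48.

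Among survival genes, Bcl2 lay at 2.47, 1.30 and 2.57 against 3.74 to 4.35 (difference -2.01, limma adjusted p = 0.000642), and Mcl1 at 6.13, 6.26 and 6.30 against 6.77 to 7.20 (difference -0.69, limma adjusted p = 0.00359). The Bcl2 family had 2 of 13 higher and 5 lower, beside 21.2% and 16.3% over all genes, and 0 higher and 3 lower without Notch3 KO T-ALL 1 or 3. Bcl2, Bcl2l1 and Mcl1 protect against cell death. Of the members that promote it, Bmf and Bbc3 fell by 1.40 and 1.27 (limma adjusted p = 0.03 and 0.0262) and Bax and Bid rose by 0.85 and 0.62 (limma adjusted p = 0.0108 and 0.0124). The call of Bbc3 was lost without any 1 of the leukemias, that of Bmf without Notch3 KO T-ALL 3, and those of Bax and Bid without Notch3 KO T-ALL 1 or 3.

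In the list of PI3K and mTOR signaling 2 of 16 were higher and 5 lower (3 without Notch3 KO T-ALL 3), beside 21.2% and 16.3% over all genes. The 2 higher genes, Slc7a5 and Slc3a2, encode the paired chains of the large amino acid transporter, and had differences of 2.24 and 1.08 (limma adjusted p = 5.5e-06 and 8.93e-05). Slc7a5 lay at 5.48, 5.76 and 5.38 against 2.52 to 3.99. Pik3ip1, an inhibitor of PI3K, fell by 1.50. NF-κB genes were lower in 6 of 12 and higher in 0, with its inhibitors Nfkbia and Tnfaip3 down by 1.71 and 1.31 and the subunit gene Rel by 1.45.

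Chromatin genes had 4 of 18 higher and 5 lower, beside 21.2% and 16.3% over all genes, and 2 higher and 3 lower without Notch3 KO T-ALL 1, 1 higher and 4 lower without Notch3 KO T-ALL 3, and 1 higher after quantile normalization or with control pairs averaged. Dnmt1, the maintenance DNA methyltransferase, lay at 7.08, 7.20 and 7.06 against 5.27 to 6.53 (difference 1.13, limma adjusted p = 0.00671). Tet2, which oxidizes methylcytosine, lay at 1.61, 1.44 and 0.76 against 2.43 to 3.03 (difference -1.42, limma adjusted p = 0.00782), a call lost without Notch3 KO T-ALL 3. Kdm6b, a histone H3 demethylase, fell by 1.30, with Notch3 KO T-ALL 1 inside the thymus range.

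Interferon-stimulated genes were lower in 13 of 28 and higher in 1, with a median of -0.80. With controls 5 and 6 alone 4 were lower, and 7 and 8 when Notch3 KO T-ALL 1 or 3 was left out. Ifit1 and Ifit3, antiviral RNA-binding proteins, lay at 0.46, 1.83 and 1.19 against 2.45 to 4.21 and at 0.51, 1.26 and 0.78 against 2.11 to 3.72. Their differences were -2.33 and -2.20 (limma adjusted p = 6.15e-05 and 1.91e-06), and both were called with the erythroid covariate (limma adjusted p = 0.00502 and 0.00823). Rtp4 fell by 2.27. The exception was Rsad2, the antiviral enzyme viperin, at 4.43, 6.93 and 6.18 against 1.14 to 2.14 (difference 4.05, limma adjusted p = 0.000537), in the same order as the erythroid sums, and with the erythroid covariate its difference was -2.38 (limma adjusted p = 0.0591).

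Of 14 MHC class I genes 3 were higher and 2 lower (1 and 0 lower without Notch3 KO T-ALL 1 and 3), close to the 21.2% and 16.3% over all genes, and after quantile normalization 1 was higher and 4 lower. The list held the chaperones Calr and Canx, up by 0.97 and 0.86 with no call for Calr after quantile normalization, and Nlrc5, the activator of class I genes, at 1.34, 1.08 and 0.59 against 2.43 to 3.38 (difference -1.99, limma adjusted p = 0.0132), a call lost without Notch3 KO T-ALL 3. Of 9 MHC class II genes 1 was lower, H2-Ob, a modulator of peptide loading in B cells and thymic cells (difference -1.35, limma adjusted p = 0.000183).

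The erythroid lists held the largest rises. Heme synthesis genes were higher in 10 of 12, erythroid regulators in 9 of 10 and genes of the red cell membrane, transport and hemoglobin in 20 of 22, with medians of 2.24, 3.93 and 5.68 and 0 lower in each. Alas2, which starts heme synthesis in red cell precursors, had log2 levels of 6.60, 8.88 and 8.17 in Notch3 KO T-ALL and 0.16, 0.31 and 1.64 in thymus (difference 7.39 ± 1.01, limma adjusted p = 9.67e-06). Alad, the enzyme that follows, rose by 5.15. Alad was highest in Notch3 KO T-ALL 3, at 8.59 against 5.04 and 6.48, unlike Alas2.

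Klf1 and Gata1, the master regulators of red cell genes, lay at 4.65, 6.01 and 6.00 against 0.00 to 0.11 and at 3.98, 5.25 and 5.58 against 0.58 to 0.73. Their differences were 5.51 and 4.27 (limma adjusted p = 1.53e-07 and 8.94e-07), and Trim10, an erythroid ubiquitin ligase, rose by 5.69. Such regulators are known from nucleated red cell precursors, and the mouse spleen can make red cells. The hemoglobin genes Hba-a2 and Hbb-bs had levels of 14.39, 16.07 and 15.68 and of 13.21, 14.96 and 14.58, and hemoglobin genes made up 4.05% to 15.5% of summed scaled RPKM, beside 0.0093% to 0.1175% in thymus. Hemoglobin genes have near-identical copies, so single values are uncertain.

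The promoters of Alas2 and Epb42 are printed because red cell genes rose together and GATA factors are known to act on them. Epb42, a red cell membrane protein gene, lay at 3.30, 5.74 and 4.11 against 0.00 to 0.03 (difference 4.37, limma adjusted p = 6.34e-06). Capitals mark the GATA motif AGATAA or its reverse complement in 250 bases before the RefSeq starts on GRCm38.p6, chrX:150547167-150547416, plus strand, and chr2:121036878-121037127, minus strand:
Alas2: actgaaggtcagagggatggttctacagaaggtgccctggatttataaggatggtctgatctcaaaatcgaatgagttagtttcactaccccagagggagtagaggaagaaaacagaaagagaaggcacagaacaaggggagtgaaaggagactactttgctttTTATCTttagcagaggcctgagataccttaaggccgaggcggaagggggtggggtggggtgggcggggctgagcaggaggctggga
Epb42: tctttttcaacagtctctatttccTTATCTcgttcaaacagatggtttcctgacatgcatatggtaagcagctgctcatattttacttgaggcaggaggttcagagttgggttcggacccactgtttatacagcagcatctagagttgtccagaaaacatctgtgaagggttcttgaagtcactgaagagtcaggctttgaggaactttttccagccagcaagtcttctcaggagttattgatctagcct
The motif stood in 4 of 13 (30.8%) genes of the membrane list with a RefSeq promoter, 3 of 9 (33.3%) regulators, 1 of 9 (11.1%) heme genes and 11.4% of 27025 genes.

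With hemoglobin, receptor, ribosomal protein and predicted genes set aside, the 10 largest rises included Slc4a1, Alas2, Aqp1, Car1, Rhd, Cldn13, Car2 and Rhag, genes expressed in the red cell lineage. Slc4a1 (gene 20533, chromosome 11, 102348820 to 102365281), the anion exchanger band 3, had log2 levels of 6.92, 9.79 and 8.40 against 0.02 to 0.18 in thymus (difference 8.28 ± 0.82, limma adjusted p = 1.53e-07). The water channel Aqp1 and the Rhesus proteins Rhd and Rhag rose by 7.12, 6.39 and 5.99, Cldn13 by 6.04 and the carbonic anhydrase Car2 by 6.03. Car1, the other carbonic anhydrase, was at 6.15, 6.23 and 7.32 against 0.00 to 0.21 (difference 6.49), and was the one of these 10 to keep its call with the erythroid covariate (limma adjusted p = 0.0194).

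By the same rule, the 10 largest falls were of mixed kinds. Dgkeos (gene 414094, chromosome 11, 89060751 to 89067884), a transcript opposite to Dgke, had log2 levels of 1.09, 0.45 and 0.38 in Notch3 KO T-ALL and 5.61 to 6.68 in thymus (difference -5.49 ± 0.24, limma adjusted p = 1.16e-13), and WT T-ALL, at 0.00 to 1.10, shared the low level. Whether the deposited quantification used the strand of the reads is not given in the sources used here, so this antisense gene cannot be told apart from its partner. Tdrp lay at 0.02, 0.64 and 0.13 against 4.23 to 5.08 and Tes, an adhesion protein, at 1.13, 0.52 and 1.39 against 4.18 to 5.31. Dgkeos, Tdrp and Tes kept their calls with the erythroid covariate (limma adjusted p = 8.44e-07, 2.45e-05 and 0.00682).

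Ms4a4b, a membrane protein of T cells, lay at 3.15, 0.97 and 0.77 against 5.57 to 6.91 (difference -4.60). Arl5c fell by 4.04, Rab6b by 3.84 and Slc15a2, a peptide transporter, by 3.74, beside Rag1 and Gimap3 above. Dynlt1c was listed at 0 in the 3 leukemias and at 4.66 to 5.64 in thymus, so no fold is given. It has near-identical neighboring copies, and its value is uncertain.

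The 3 leukemias differed among themselves in single genes. Notch3 KO T-ALL 2 had the highest Rag1, Rag2, Cd8a, Cd8b1 and Cdkn2a, the lowest Hes1 and Heyl and few neutrophil transcripts. Notch3 KO T-ALL 1 had the lowest Ptcra, Rag1 and Rag2, the highest Ccr9 and the smallest erythroid sum. Notch3 KO T-ALL 3 had the lowest Cd4 and Ccr9 and the highest Il7r and Il2ra. The correlation of log2 levels across genes was 0.908 to 0.953 between leukemias, below the 0.958 to 0.995 between thymus controls. With 3 leukemias, each a different tumor, these are descriptions of single libraries.

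By chromosome, the genes of chromosome 15 stood highest, with a median difference of 0.44 over 472 genes and medians of 0.52, 0.35 and 0.36 in the 3 leukemias. Of them 30.9% were higher and 8.9% lower, beside 14.8% to 26.8% higher on the other chromosomes. Myc lies on chromosome 15. Besides chromosome 15, Notch3 KO T-ALL 2 had its highest medians on chromosomes 4 and 12, at 0.35 and 0.33. These chromosomes had medians of 0.06 and 0.05 in Notch3 KO T-ALL 1 and 0.16 and 0.22 in Notch3 KO T-ALL 3. These are medians of expression, and DNA copy number was not measured in the values used here. Sex differed as well. The Y-linked gene Ddx3y was at 3.91, 3.83 and 0.29 in the leukemias and at most 0.04 in thymus, while Xist was at 3.21, 4.61 and 6.56 against 6.46 to 7.32.

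**Figure D5:**
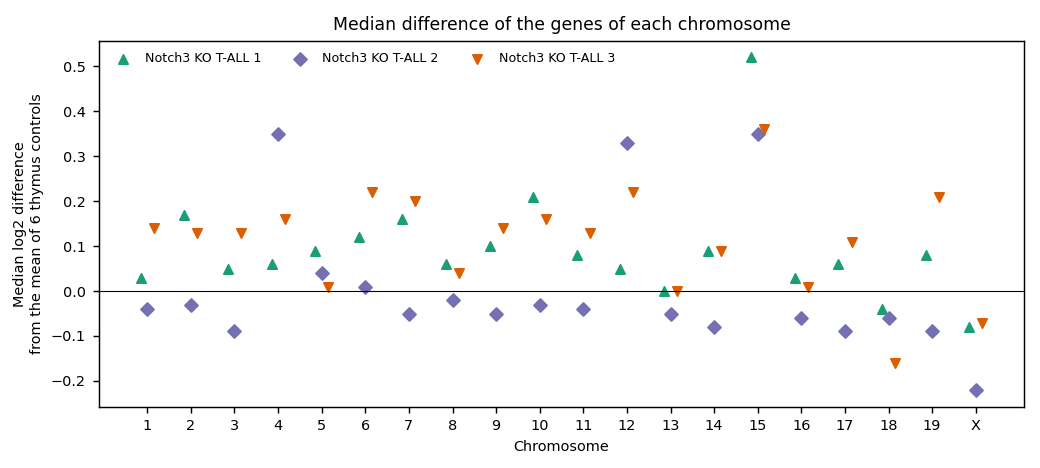
Median over the genes of each chromosome of the log2 difference between a Notch3 KO T-ALL library and the mean of 6 thymus controls, with 1 symbol for each of 3 leukemias. Chromosome 15 lies at 0.35 to 0.52 in all 3, and chromosomes 4 and 12 at 0.35 and 0.33 in Notch3 KO T-ALL 2.

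The 3 leukemias were also compared with the 14 WT T-ALL spleens, which share host and tissue. Of 11677 genes, 72 (0.617%) differed at an adjusted p under 0.05 in limma, 69 (0.591%) higher and 3 (0.0257%) lower in Notch3 KO T-ALL. At an unadjusted p under 0.05 there were 994, and leaving out Notch3 KO T-ALL 1, 2 or 3 gave adjusted counts of 205, 3 and 12. Of all list members 2 were called. Gadd45a lay at 2.58 to 4.23 in WT T-ALL (difference 1.37, limma adjusted p = 0.0373), and the platelet receptor gene Treml1 at 2.22, 3.18 and 2.92 against 0.21 to 2.48 (difference 1.90, limma adjusted p = 0.018). Both calls were lost without Notch3 KO T-ALL 2 or 3.

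The Notch, oncogene and thymocyte genes described above were then read in that comparison. Notch1 differed by 0.03, Myc by 0.20, Dtx1 by -0.30, Hes1 by -0.97, Rag1 by -0.74, Cd8a by -0.32 and Ccnd1 by 0.98 (limma adjusted p of 0.547 to 1.0), which does not show that they were equal. Tal1 and Lmo2 were 1.94 and 1.46 higher than in WT T-ALL (limma adjusted p = 0.121 and 0.197), as was Alas2 by 2.45 (limma adjusted p = 0.442). Erythroid sums of WT T-ALL ran from 41.1 to 1650, beside 578 to 3000 for the knockout leukemias. Notch3 itself lay at 3.17, 4.85 and 5.78 as lowest, median and highest in WT T-ALL. Its mean there was 1.56 above Notch3 KO T-ALL, which did not pass after adjustment over all genes tested (limma adjusted p = 0.101). The exact test of Notch3 alone was made only against thymus, so these results stand at unlike thresholds. The missing call does not show that Notch3 levels were equal.

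The called genes of that comparison fell partly into 3 kinds noticed after their values were seen, and 6 of the 72 were histone genes, 5 of them higher and 1 lower. Pancreatic acinar genes made up 18 of 72. The acinar group was drawn up from the called genes, so its count is no result. How many histone or acinar genes were tested was not counted. Without Notch3 KO T-ALL 2, 3 genes of any kind were called, 2 of them short structured RNA genes. Cpa1, a carboxypeptidase, and Pnlip, a lipase, had log2 levels of 1.39, 4.90 and 4.12 and of 1.41, 5.27 and 4.18 in Notch3 KO T-ALL, with WT T-ALL medians of 0.04 and 0.05 and thymus levels of at most 0.04 and 0.06. Differences from WT T-ALL were 3.11 and 3.21 (limma adjusted p = 0.00956 and 0.0117), and Ctrb1, a chymotrypsin, and Rnase1 were 4.20 and 2.34 higher. The highest WT T-ALL library reached 2.20 in Cpa1 and 4.23 in Ctrb1. The calls of Cpa1, Pnlip and Ctrb1 were lost without Notch3 KO T-ALL 2 or 3, the libraries with the highest values. Without either of these Rnase1 fell under the filter and has no value. The pancreas lies beside the spleen, and its part in these values was not tested.

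Short structured RNA genes made up 9 of 72, all higher, of 10 such genes that passed the filter. Of the 9, 5 passed it only through the 3 leukemias, so they had to differ, and with any 1 leukemia left out they were not tested, Snord15a and Snord15b among them. Of the other 4, 3 were called without Notch3 KO T-ALL 1 or 3, and 2, Snord22 and Rmrp, when Notch3 KO T-ALL 2 was left out. Snord15a and Snord15b, small nucleolar RNAs, had log2 levels of 2.60, 3.36 and 3.34 and of 3.23, 4.67 and 3.72 in Notch3 KO T-ALL, and at most 0.41 and 0.78 in WT T-ALL and 0.59 and 0.83 in thymus. Rmrp, the RNA of an RNA-processing enzyme, lay at 5.33, 6.21 and 6.86 against 0.65 to 4.08 in WT T-ALL, and thymus lay at 1.58 to 3.24. The differences from WT T-ALL were 3.03, 3.64 and 3.95, the last with a limma adjusted p of 0.000839. No p is given for Snord15a and Snord15b, since the filter set their outcome. In Rmrp the 3 leukemias lay above every WT T-ALL and thymus library. The labels give the same library kit for all samples and no batch or date of preparation, and the part of library preparation in the differences from WT T-ALL or from thymus was not tested. Tmod1, a red cell membrane skeleton gene, was 2.62 higher than in WT T-ALL (limma adjusted p = 0.000718), a call lost without Notch3 KO T-ALL 2.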

How the data were processed

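RNA sequencing measured 23 samples, 9 of them compared here (3 Notch3 KO T-ALL, 6 thymus control), grouped by their labels. Per the study's methods, stranded mRNA libraries were read as paired ends and aligned with OSA in ArrayStudio to the mouse transcriptome (mm10 in the submitters' processing notes). The authors deposited 1 table of log2 values, log2(RPKM + 1) after scaling each library to the same upper quartile (75th percentile of 9.99 to 10.0). No counts were in the values used, so the depth per library is unknown. Of 24475 gene IDs, 24375 matched RefSeq, and 27 symbols turned into dates were restored.

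Genes were kept where 3 or more samples reached a scaled RPKM of 1. The log2 values were fitted with limma 3.58.1 in R 4.3.3 (trended and robust eBayes) over all 23 samples for the thymus comparison and over 17 T-ALL samples for the comparison with WT T-ALL, with Benjamini-Hochberg adjusted p under 0.05 as the call. On simulated data for the thymus comparison simulated log2 differences of 2 were recovered in 93% of genes and differences of 1 in 48%. In the same data 8 genes simulated without a change were called. Notch3 was tested by an exact permutation test. The 39 pathway and 10 marker lists (779 genes) and the members named were chosen with earlier results of these data known. Genes were named by rule as the 10 largest rises and falls (no overlap, a mean of 5 scaled RPKM or more in the group with the higher level, without receptor, hemoglobin, ribosomal and predicted genes), the up to 3 called genes of each list with the largest change in each direction, of which some are left unprinted, and members that define a list. Cd3e, Thy1, Lck, Tcf7, Ctla4, Cdk4, E2f1, Il2ra, Mcm6 and Epb42 were added after their values were seen, as were Snord15a, Snord15b, Rmrp, Tmod1 and the pancreatic genes. Alternatives were other offsets, filters, scalings and samples, an erythroid covariate and a replicate block. Promoters are from RefSeq. Some genes that the rule names are not reported here.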

Additional observations from a re-analysis of the deposited data

Results flagged for a closer look

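Among 156 genes examined over the 6 thymus controls, 12 had a control set apart from the others by Dixon's test at its 95% critical value, and chance gives about 1 in 20. Thymus control 3 had log2 levels of 2.15 in Tnfrsf14 (others from 2.69), 5.25 in Tnfaip3 (others up to 5.03), 1.64 in Alas2 (others up to 0.38) and 0.14 in Acta2 (others up to 0.02). Thymus control 6 had 2.05 in Orc1, 4.76 in Tpi1, 0.16 in Treml1, 5.08 in Tdrp and 9.87 in Lck. Thymus control 1 had 0.04 in Rhag and 3.18 in Rab6b, and thymus control 4 had 0.18 in Cldn13.

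The effect differed between leukemias of the 2 donor genotypes for 10 named genes by the limma test of Notch3 KO T-ALL against WT T-ALL. Of these, 8 were named because they passed that test (all but Gadd45a and Treml1), so their number is no result, and the calls of Gadd45a, Treml1, Tmod1, Cpa1, Pnlip and Ctrb1 were lost without Notch3 KO T-ALL 2, all of these but Tmod1 also without Notch3 KO T-ALL 3. Rmrp kept its call with any 1 leukemia left out, whereas Snord15a and Snord15b were then under the filter and not tested, as was Rnase1 in the absence of Notch3 KO T-ALL 2 or 3. The log2 differences were 1.37 for Gadd45a, 1.90 for Treml1, 3.03 for Snord15a, 3.64 for Snord15b, 3.95 for Rmrp, 2.62 for Tmod1, 3.11 for Cpa1, 3.21 for Pnlip, 4.20 for Ctrb1 and 2.34 for Rnase1.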

How the results depend on the processing

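Against thymus, 4475 genes were called. The count was 347 with the erythroid covariate, 2477 with an absolute log2 difference of at least 1, and, in alternatives added after seeing the data, 2875 with control pairs averaged and 1783, 1792 and 2926 with controls 1 and 3, 2 and 4 or 5 and 6 alone. Leaving out 1 library gave 2859 to 4292, lowest without Notch3 KO T-ALL 3. With the replicate number as a block 3630 were called; same-numbered samples did not deviate together (correlations of -0.015, 0.108 and 0.071), so they share only a number. Against WT T-ALL, 72 were called, and 254 with all 23 samples in the fit, 39 and 2 with offsets of 0.1 and 0.01, 134 with no filter, 6 with a filter of 5, 18 with the erythroid covariate and 3 to 205 leaving out 1 library. The Notch3 difference from thymus ran from -0.402 to 0.172, reversed without Notch3 KO T-ALL 2 (0.172) and thymus control 4 (0.072).

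With the erythroid covariate the differences from thymus of Il7r (0.38), Tnfrsf14 (-0.55), Gadd45a (-0.12), Rps29 (-0.22), Impdh1 (0.27), Kdm6b (0.46), Rsad2 (-2.38), Alas2 (-0.64), Zbtb46 (-0.09), Cd3e (0.21), Thy1 (0.54), Epb42 (-0.20), Bbc3 (0.50) and Tcf7 (0.10) reversed. Ctla4 reversed with offsets of 0.1 (-0.13) and 0.01 (-0.17), quantile normalization (-0.04) and controls 1 and 3 alone (-0.08), as did Notch2 (0.02) and Cd3e (0.14) with those controls. Leaving out 1 library gave -1.37 to 0.97 for Ctla4, -0.13 to 0.64 for Nrarp and -1.27 to 0.88 for Ptcra. The cause was not tested. Of 155 named genes, 148 were called against thymus. The covariate ended 131 of these calls, 12 of them with a turn in direction (Alas2 and Epb42 are members of the covariate's score). The block ended 10 calls (Hes1, Rag2, Trp53, Mki67, Bcl2l1, Kdm6b, S100a8, Tcf7, Bax and Bid), and controls 5 and 6 alone ended 24. Unknown depth limits statements on genes near 0.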
